A study of Mus musculus with 19 samples.

Results

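The mitochondrial ribosome is built from proteins that the nucleus encodes, and the genes described here are the 78 protein-coding mouse genes whose symbol begins with Mrpl or Mrps and a number. They were taken by symbol from the 53801 gene IDs of the deposited count tables, of which 53706 matched GENCODE M21, and 5 symbols ending in -ps were left out as pseudogenes. Of the 78 genes, 49 carry a large-subunit symbol and 29 a small-subunit symbol, and they lie on 17 chromosomes. RNA sequencing reads were counted per gene in 19 homogenates of hippocampus and cortex, 1 per mouse, from C57BL/6 mice at 3 months of age. All mice had received an adeno-associated virus (AAV1) into the ventricles on the day of birth, and all vectors carried GFP. The poly(PR) cohort compared 7 mice given GFP-(PR)50 (4 female, 3 male) with 4 mice given GFP alone (3 female, 1 male). Here (PR)50 stands for 50 repeats of the dipeptide of proline and arginine. The poly(GR) cohort compared 4 mice given GFP-(GR)100 (3 female, 1 male) with its own 4 GFP mice (2 female, 2 male). In turn, (GR)100 stands for 100 repeats of the dipeptide of glycine and arginine. Both dipeptide repeats can be translated from the repeat expansion in C9orf72 that causes amyotrophic lateral sclerosis and frontotemporal dementia. The sources used here give neither the promoter of the vectors nor the share of cells that expressed them.

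Mitochondrial ribosomes translate the few mRNAs that the mitochondrial genome encodes, all of them for membrane subunits of the oxidative phosphorylation complexes. The ribosome joins mitochondrially encoded rRNA to nuclear-encoded proteins, some with bacterial counterparts and others found only in mitochondria. The large subunit forms peptide bonds, and the small subunit decodes the mRNA. Neurons rely on oxidative phosphorylation for much of their ATP. Symbols do not always match place: the protein of Mrps18a and that of Mrps30 sit in the large subunit, and that of Mrps36 belongs to the 2-oxoglutarate dehydrogenase complex.

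Between 26934239 and 47648711 reads per library fell on genes, and the 78 genes together took 0.198% to 0.285% of them. Reads were found for 77 of the 78, and all 77 passed the filter on low counts in every comparison. Mrpl53 was listed at 0 in all 19 libraries, and 88.0% of its exonic bases are shared with Gm42688 and Ccdc142os. Since the counts keep no strand, genes that share bases are uncertain. Such sharing exceeded 10% of the exonic bases in 18 of the 78 genes, and after Mrpl53 it was highest in Mrps34 (77.8%) and Mrps25 (69.8%). Mrpl46 and Mrps11 overlap each other on opposite strands. The pseudogenes left out had at most 0.212 CPM, reads per 1e+06 gene reads, on average.

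Levels per length ranged 19.1-fold among the 77 genes with reads, from 4.90 to 93.5 CPM per kb of median transcript length, with a median of 29.7 CPM per kb over the 19 libraries. The highest levels per kb were those of Mrpl20 (93.5 ± 14.3, SD, n = 19), Mrpl48 (76.1 ± 4.87) and Mrpl41 (73.1 ± 8.50), all large-subunit proteins. The lowest were those of Mrps22 (7.79 ± 0.727), a mitochondria-specific small-subunit protein, Mrps30 (5.22 ± 0.232) and Mrpl1 (4.90 ± 0.337), a bacterial-type large-subunit protein. Mrpl20 lay above Mrpl48 by more than either SD, while Mrpl48 and Mrpl41 differed by less than the SD of Mrpl41. The order depends on the length used: per kb of all annotated exonic bases Mrpl41 ranked 1, Mrpl20 ranked 6 and Mrpl48 ranked 55.

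**Figure D1:**
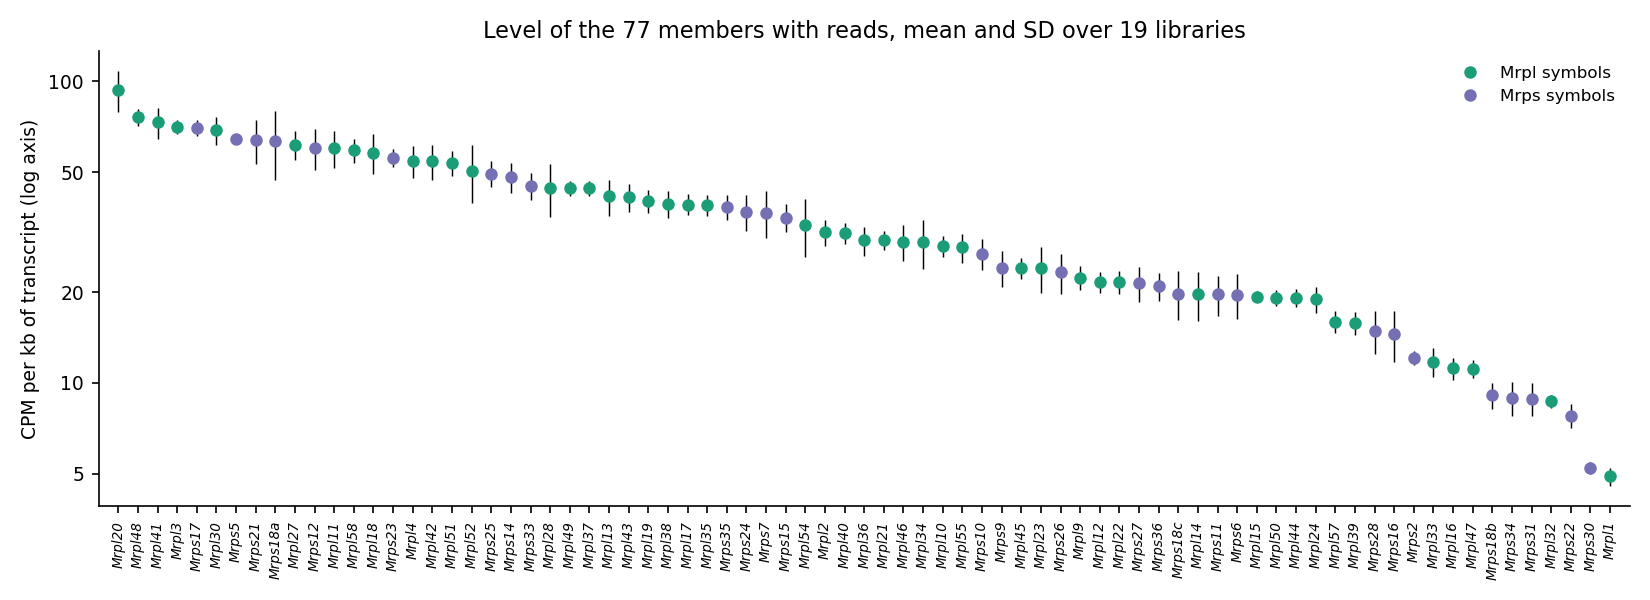
Level of each of the 77 genes with reads, in CPM per kb of median transcript length on a log axis, with the mean as a point and the SD over 19 libraries as a bar, coloured by symbol. Mrpl and Mrps symbols are mixed along the order, from Mrpl20 at 93.5 to Mrpl1 at 4.90 CPM per kb.

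With poly(PR), the question was how far transcripts of the mitochondrial ribosome differed from the GFP controls. Most of these genes had a fitted level slightly above the controls, but none passed the test. The log2 fold change was above 0 in 68 of the 77 (51.1% of all 19156 genes tested), with a median of 0.13 against 0.01 over all genes tested. These genes mostly rose and fell together between libraries of 1 group, so such counts are not of independent genes. It lay between -0.08 (Mrpl35) and 0.49 (Mrps18a), or between 0.945-fold and 1.40-fold. By edgeR's quasi-likelihood test, which took sex as a covariate, with p-values adjusted by Benjamini-Hochberg, 0 of the 77 were called (0.0574% of all genes tested), and DESeq2 also called 0. The smallest adjusted p was 0.226. At an unadjusted p under 0.05 there were 9 of the 77, or 11.7%, in either direction (14.9% of all genes tested). All 9 were higher, where 7.64% of all genes tested were higher by this rule and 7.31% lower. In no gene was every poly(PR) library above every control, where 1.39% of all genes tested were, and in none was every one below (1.32%). In a homogenate, fewer cells of a type and less RNA per cell cannot be told apart.

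Mrps18a, 1 of 3 paralogs of the bacterial S18 protein, at chr17:46110986-46128910 on the plus strand (GRCm38), had the largest log2 fold change in the poly(PR) cohort. Its controls held 48.9, 37.2, 39.0 and 55.4 CPM, and the 7 poly(PR) libraries ranged from 46.0 to 81.9 CPM with a median of 59.1. Of the 7, 4 were above every control, and the lowest fell among the controls. The log2 fold change was 0.49 (SE 0.15, n = 4 and 7), and adjusted p was 0.226 by edgeR.

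Mrpl54, a mitochondria-specific large-subunit protein, had 21.6, 15.6, 12.5 and 22.7 CPM in the controls and 18.6 to 30.2 CPM with poly(PR), with a median of 23.4. Its log2 fold change was 0.41 (SE 0.17, adjusted p = 0.295 by edgeR). The 4 highest libraries were all poly(PR), and the 2 lowest were controls. Mrpl52, another mitochondria-specific large-subunit protein, had 22.02, 18.2, 16.7 and 25.7 CPM in the controls and 19.2 to 35.7 CPM with poly(PR), with a median of 24.3. Its log2 fold change was 0.35 (SE 0.16, adjusted p = 0.331), and the groups overlapped.

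Mrps18c, an S18 paralog of the small subunit, had 9.82, 7.31, 7.52 and 10.4 CPM in the controls and 7.43 to 14.2 CPM with poly(PR), with a median of 10.7. Its log2 fold change was 0.32 (SE 0.16, adjusted p = 0.369). Mrps16, a bacterial-type small-subunit protein, had a log2 fold change of 0.29 (SE 0.14, adjusted p = 0.359). In both genes the lowest poly(PR) library lay inside the control range.

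At the other end, Mrpl35, Mrpl1, Mrpl16, Mrpl50 and Mrps31 had log2 fold changes of -0.08, -0.07, -0.07, -0.06 and -0.05, each less than 2 SE from 0. For Mrpl35, a large-subunit protein, the controls held 27.99, 29.5, 29.5 and 28.3 CPM and the poly(PR) libraries 25.2 to 30.3 CPM, with a median of 26.1. Of the 7, 2 were above every control and 5 were below every control. Mrpl16, a bacterial-type large-subunit protein, averaged 23.4 ± 1.53 CPM (SD, n = 4) and 22.3 ± 0.562 CPM (SD, n = 7).

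The median over the 77 genes fell to 0.07 without poly(PR) control 3, to 0.04 with 1 surrogate variable, to 0.06 with offsets for GC content and length, and to 0.09 without the sex term or with the share of mitochondrial reads as a covariate. Mrps18a passed the test in 3 alternatives: with 1 surrogate variable (log2 fold change 0.27, adjusted p = 0.0219), with the share of mitochondrial reads as a covariate (0.41, adjusted p = 0.0179) and without poly(PR) library 6 (0.58, adjusted p = 0.0367).

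**Figure D2:**
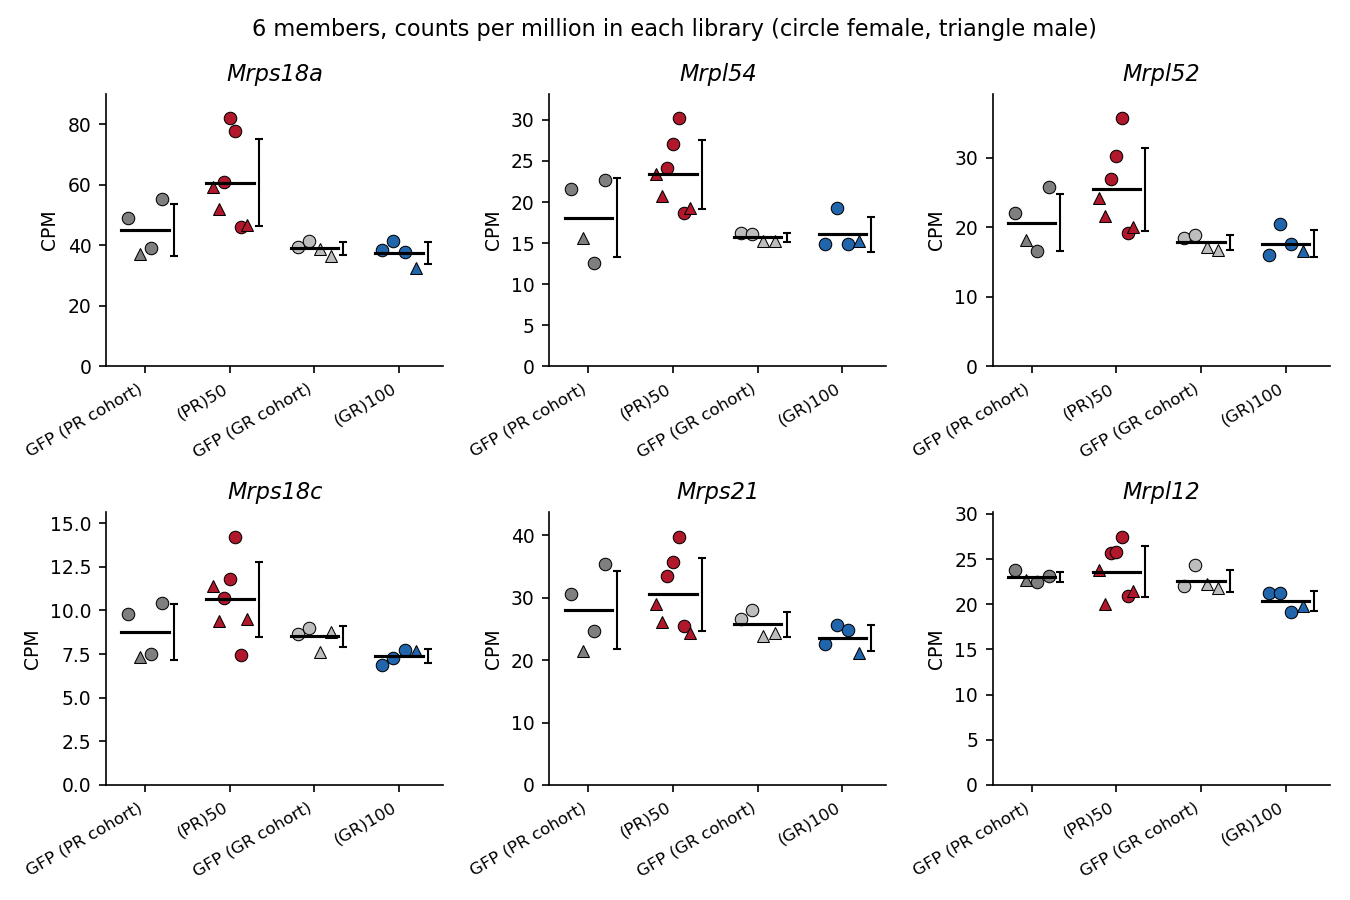
CPM of 6 genes in each of the 19 libraries, in 4 groups, with circles for female and triangles for male mice, a line at the group mean and a bar for the SD (n = 4, 7, 4 and 4). The poly(PR) libraries overlap their controls in all panels, and among poly(GR) libraries Mrpl12 is the only one of the 6 whose treated libraries all lie below the controls.

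With poly(GR), fitted levels lay slightly below the GFP controls in most of these genes, and again none passed the test. The log2 fold change was below 0 in 67 of the 77 (49% of all 18511 genes tested) and above 0 in 10 (51%), with a median of -0.07 against 0.00324 over all genes tested. It lay between -0.21 (Mrps18c) and 0.12 (Mrps18b), or between 0.866-fold and 1.09-fold. By edgeR 0 of the 77 were called (0.173% of all genes tested), DESeq2 also called 0, and the smallest adjusted p was 0.32. At an unadjusted p under 0.05 there were 15 of the 77, all lower (5.25% of all genes tested were lower by this rule and 6.23% higher). In 3 genes, Mrpl12, Mrpl46 and Mrps31, every poly(GR) library was below every control (2.41% of all genes tested), and in none was every one above (2.29%).

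Mrpl12, the stalk protein of the large subunit that is also reported to bind the mitochondrial RNA polymerase, had 21.97, 24.3, 22.2 and 21.8 CPM in the controls and 21.3, 21.2, 19.1 and 19.8 CPM with poly(GR). The lowest control and the highest poly(GR) library lay close together. Its log2 fold change was -0.17 (SE 0.06, adjusted p = 0.351 by edgeR). Mrps31, a mitochondria-specific small-subunit protein, had 20.7, 20.2, 20.4 and 20.3 CPM in the controls and 18.2, 18.1, 17.6 and 19.3 CPM with poly(GR). The controls were close together, and the log2 fold change was -0.14 (SE 0.06, adjusted p = 0.388). Mrpl46, a large-subunit protein whose gene overlaps Mrps11, had a log2 fold change of -0.09 (SE 0.06, adjusted p = 0.582).

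Mrps18c had 8.66, 9.02, 7.61 and 8.76 CPM in the controls and 6.86, 7.29, 7.75 and 7.70 CPM with poly(GR). The lowest control fell among the treated libraries, and the log2 fold change was -0.21 (SE 0.09, adjusted p = 0.426). Mrps21, the small-subunit protein with the smallest p of the 77, had 26.6, 28.02, 23.8 and 24.3 CPM in the controls and 22.5, 25.6, 24.9 and 21.1 CPM with poly(GR). Its log2 fold change was -0.18 (SE 0.06, adjusted p = 0.32). Mrps36 (-0.19, SE 0.09) and Mrpl22 (-0.19, SE 0.08), a bacterial-type large-subunit protein, completed the 5 lowest.

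The 5 highest in this cohort were Mrps18b at a log2 fold change of 0.12 (SE 0.10), Mrpl4 at 0.04 (SE 0.07), Mrps34 at 0.04 (SE 0.09), Mrpl2 at 0.02 (SE 0.07) and Mrpl55 at 0.02 (SE 0.07). Mrps18b, the remaining S18 paralog, averaged 6.69 ± 0.795 CPM in the controls and 7.21 ± 0.262 CPM with poly(GR) (SD, n = 4 each), a difference within the spread. The 3 S18 paralogs therefore had log2 fold changes of -0.10, 0.12 and -0.21 with poly(GR), for Mrps18a, Mrps18b and Mrps18c, and of 0.49, 0.13 and 0.32 with poly(PR). Mrps18b shares 30.5% of its exonic bases with Gm16279, and Mrps18c shares 23.2% with Gm43511. Their unstranded counts are uncertain for that reason, while Mrps18a shares 0%.

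Among the controls of this cohort, sex, rRNA share and library cannot be told apart. Controls 1 and 2 were female and had rRNA shares of 59.5% and 49.1% of repeat reads, controls 3 and 4 were male and had 22.9% and 25.4%, and the poly(GR) libraries had 22.1% to 29.2%. With controls 1 and 2 left out and no sex term, 34 of the 77 genes lay below 0, and the median was 0.00766. Without the sex term alone, 56 lay below 0 and the median was -0.03.

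The difference between the poly(PR) effect and the poly(GR) effect was tested over all 19 libraries, and no gene of the 19863 tested was called (0%). Peptide, repeat number (50 against 100) and cohort change together in this difference and cannot be told apart. At an unadjusted p under 0.05, 1066 genes (5.37%) passed by edgeR, and DESeq2 called 7. Of the 77 genes, 0 were called (smallest adjusted p = 0.786). The fitted difference was above 0 in 74 of them (48.4% of all genes tested) and below 0 in 3 (51.6%), with a median of 0.20 against -0.00853. At an unadjusted p under 0.05 there were 22, all with the higher value in poly(PR) (3.22% of all genes tested, with 2.14% the other way). The largest differences were 0.61 for Mrps18a (SE 0.19, unadjusted p = 0.00399) and 0.53 for Mrps18c (SE 0.20, unadjusted p = 0.0161). The median difference was 0.12 with 1 surrogate variable and 0.13 without the sex term or with the share of mitochondrial reads as a covariate. The difference was not fitted with poly(GR) controls 1 and 2 both left out.

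By sign alone, 58 of the 77 lay above 0 with poly(PR) and below 0 with poly(GR), 10 above 0 in both, 9 below 0 in both and 0 the other way. The 10 included Mrpl54, Mrpl2, Mrpl4, Mrpl55, Mrps18b and Mrps34, and the 9 included Mrpl1, Mrpl10, Mrpl16, Mrpl35, Mrpl50 and Mrps31. The size of the 2 changes showed little relation across the genes (Spearman's rho 0.157, n = 77 genes, which share libraries and are not independent). Neither the joint signs nor rho were computed over all genes tested, so it is not known whether they are particular to these genes.

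**Figure D3:**
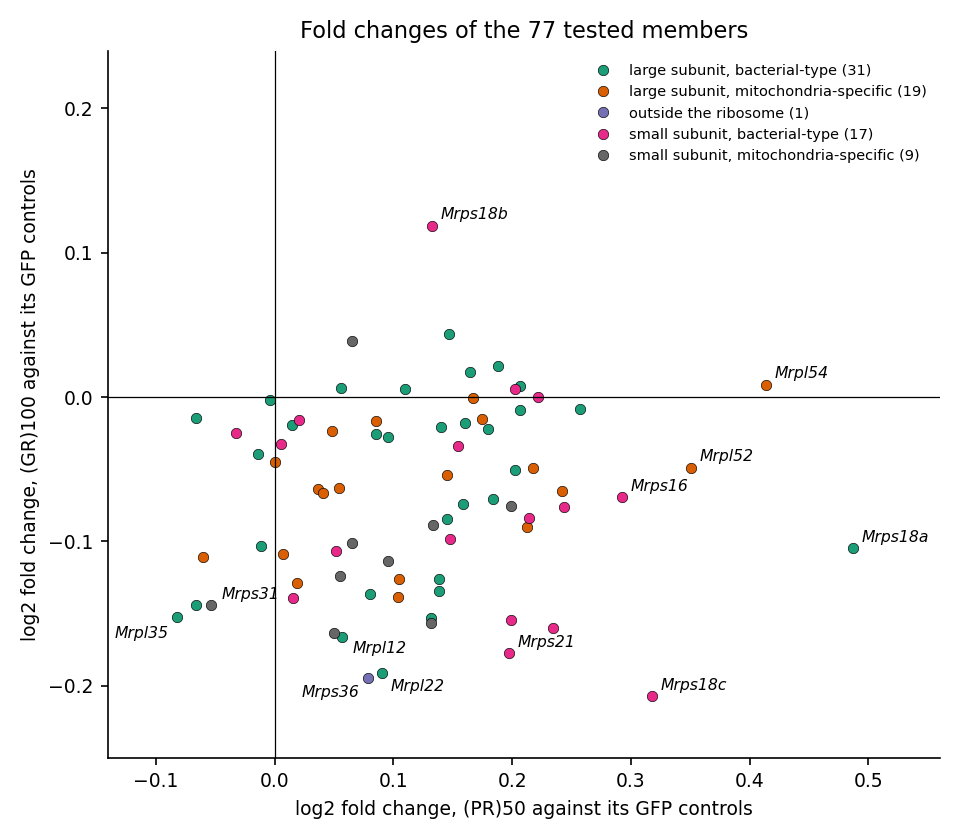
Log2 fold change of each of the 77 tested genes with poly(PR) on the x axis and with poly(GR) on the y axis, each against its own GFP controls, coloured by place in the ribosome. The points lie mostly in the lower right part, which holds 58 of the 77 genes, with Mrps18a farthest to the right and Mrps18c lowest. The share of all genes tested in that part was not computed.

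Genes of both subunits lay mostly on the same side of 0. With poly(PR), 25 of 31 bacterial-type large-subunit genes lay above 0 (median log2 fold change 0.14), 18 of 19 mitochondria-specific large-subunit genes (0.10), 16 of 17 bacterial-type small-subunit genes (0.20) and 8 of 9 mitochondria-specific small-subunit genes (0.07). With poly(GR), 6 of 31, 1 of 19, 2 of 17 and 1 of 9 lay above 0, with medians of -0.03, -0.06, -0.08 and -0.11. Mrpl53 and Mrps36 are in none of these counts. The differences between classes were not tested.

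Among genes of the large-subunit core, Mrpl2, near the peptidyl transferase centre, had log2 fold changes of 0.19 with poly(PR) and 0.02 with poly(GR). Mrpl3 had 0.01 and -0.02, at 70.4 ± 4.74 CPM in the poly(PR) controls and 71.4 ± 2.93 CPM with poly(PR). Mrpl4 had 0.15 and 0.04. None differed beyond the spread of its libraries.

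In the stalk that receives translation factors, Mrpl10 had -0.00431 and -0.00209, the values nearest 0 in both cohorts among the genes named here. Mrpl11, at the stalk base, had 0.18 (SE 0.11) and -0.02 (SE 0.05), and Mrpl12 had 0.06 (SE 0.09) with poly(PR). Among large-subunit proteins with their own activities, Mrpl44, with an RNase III-like fold, had 0.10 and -0.13. Mrpl45, which anchors the ribosome at the inner membrane, had 0.14 and -0.05.

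Mrpl58, the peptidyl-tRNA hydrolase that frees stalled ribosomes, had 34.6 ± 2.74 CPM in the poly(PR) controls and 39.4 ± 4.17 CPM with poly(PR). Its log2 fold change was 0.22 (SE 0.08, unadjusted p = 0.0186, adjusted p = 0.268), and -0.05 (SE 0.05) with poly(GR). Mrps30 varied least of the 77 between poly(PR) cohort libraries of 1 group, with an SD of 0.0463 in log2 CPM, and its log2 fold changes were 0.05 and -0.06.

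In the small subunit, Mrps12 of the decoding centre had log2 fold changes of 0.00512 with poly(PR) and -0.03 with poly(GR), and Mrps7 of the head had 0.24 (SE 0.12) and -0.08 (SE 0.07). Mrps5, a core protein linked to lifespan in mouse strains, had 0.02 in the first cohort and -0.02 in the second, at 47.2 ± 2.09 and 47.9 ± 1.56 CPM in the poly(PR) cohort. Mrps2, also of the core, had 0.02 and -0.14 (SE 0.06, unadjusted p = 0.0384, adjusted p = 0.407).

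Mitochondria-specific proteins of the small subunit gave small values too. Mrps22, in which human mutations cause mitochondrial disease, had 0.05 (SE 0.10) and -0.16 (SE 0.08). Mrps27, a pentatricopeptide repeat protein, had 0.13 (SE 0.11) and -0.09 (SE 0.08). Mrps34, another human disease gene, had 0.07 (SE 0.14) and 0.04 (SE 0.09). None passed the test.

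**Figure D4:**
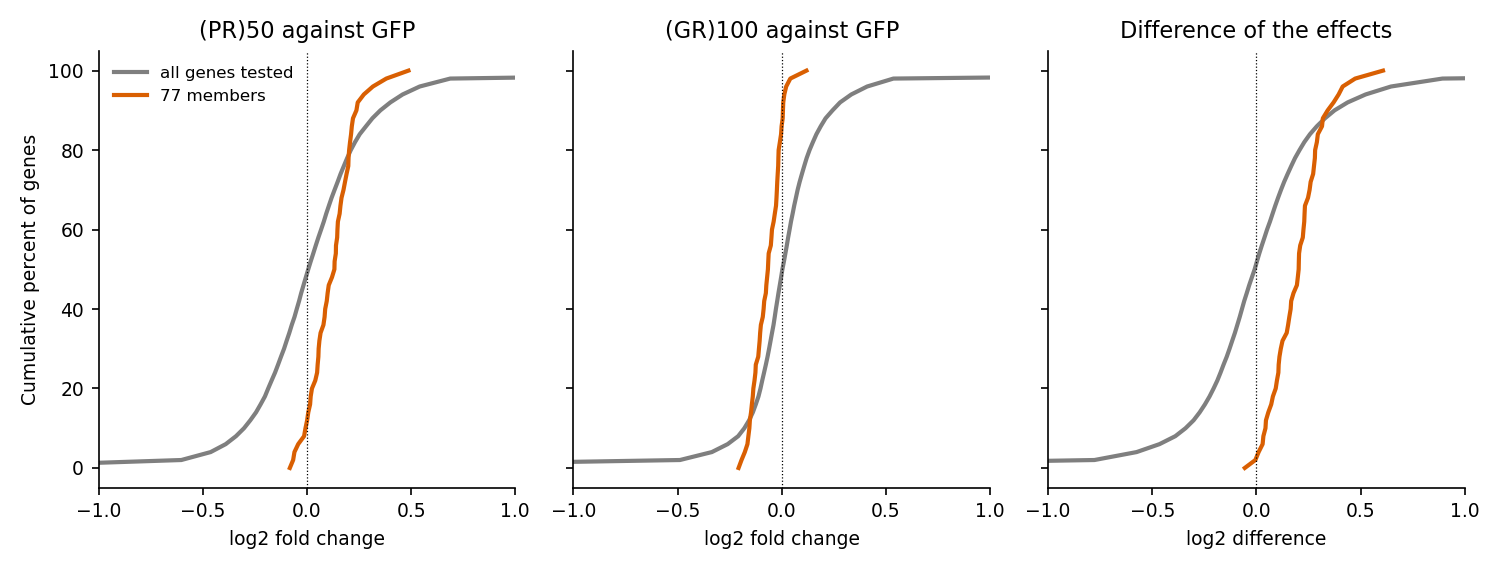
Cumulative percent of genes by log2 fold change in the 3 comparisons, for the 77 tested genes and for all genes tested, cut at 1 in either direction. The curve of the 77 lies to the right of that of all genes at its median with poly(PR) (0.13 against 0.01), to the left with poly(GR) (-0.07 against 0.00324), and is steeper in each panel. All genes tested are shown without matching by level.

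Within groups the median spread of these genes was below that of all genes tested, which were not matched to them by level. The median SD of log2 CPM among libraries of 1 group was 0.159 over the 77 against 0.223 over all genes tested in mice of the poly(PR) cohort, and 0.102 against 0.135 in those of the poly(GR) cohort. Mrpl28 (0.314), Mrps18a (0.314), Mrpl54 (0.312) and Mrpl52 (0.311) varied most in the poly(PR) cohort, so that 3 of the 5 genes with the largest fold change there were also among the 4 with the widest spread. Mrpl28 was named for its spread after its values were seen. The correlation of each gene with the mean of the others, within groups, had a median of 0.901 (poly(PR) cohort) and 0.757 (poly(GR) cohort). It exceeded 0.5 in 60 and 62 of the 77 and was below 0 in 12 and 8.

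The mean level of the genes differed between libraries of 1 group as well as between groups. Taking the mean log2 CPM of the 77, less the mean of the own controls, the poly(PR) controls stood at 0.07, -0.10, -0.11 and 0.13. The poly(PR) libraries ranged from -0.06 to 0.30 with a median of 0.11, and 4 of the 7 lay inside the control range. The poly(GR) controls stood at 0.04, 0.06, -0.02 and -0.07, and the poly(GR) libraries at -0.00559, 0.03, -0.06 and -0.14, of which 1 was outside the control range. The group means differed by 0.09 in the poly(PR) cohort, where the SDs were 0.122 and 0.139, and by -0.04 in the poly(GR) cohort, where they were 0.0597 and 0.0734. Summed over the genes, levels were 2340 ± 200 and 2496 ± 246 CPM (n = 4 and 7), and 2131 ± 86.1 and 2075 ± 105 CPM (n = 4 each).

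Single libraries set many of the extremes. Poly(PR) library 5 was the highest of 11 in 46 of the 77 genes (59.7%, against 16.1% of all genes tested), and poly(PR) controls 2 and 3 were the lowest in 24 and 22 (31.2% and 28.6%, against 11.5% and 17.1%). Poly(GR) library 4 was the lowest of 8 in 39 (50.6%, against 16.9%). By sex, the mean was 0.03 in female controls (n = 3) and 0.16 in female poly(PR) mice (n = 4), and -0.10 in the male control (n = 1) and 0.00621 in male poly(PR) mice (n = 3). In the poly(GR) cohort it was 0.05 (n = 2) and -0.01 (n = 3) in females, and -0.05 (n = 2) and -0.14 (n = 1) in males.

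Other gene groups stood high or low in the same libraries. In poly(PR) library 5 the mean of the cytosolic ribosomal protein genes was 0.51 and that of the nuclear oxidative phosphorylation genes 0.36, the highest of the cohort. In poly(PR) controls 2 and 3 they were -0.23 and -0.22, and -0.15 and -0.17. Reads on the mitochondrial genome were 6.34% of gene reads in poly(PR) library 5, 3.76% and 3.75% in those controls, and 3.72% to 5.66% in the other libraries of the cohort. Poly(PR) library 3 stood high for the 77 genes (0.18) at 3.90% of mitochondrial reads. The rRNA share of repeat reads was 40.0% to 46.1% in the poly(PR) controls and 34.4% to 36.1% with poly(PR), other than library 6 at 43.3%. The part of these measures in the results was not tested.

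**Figure D5:**
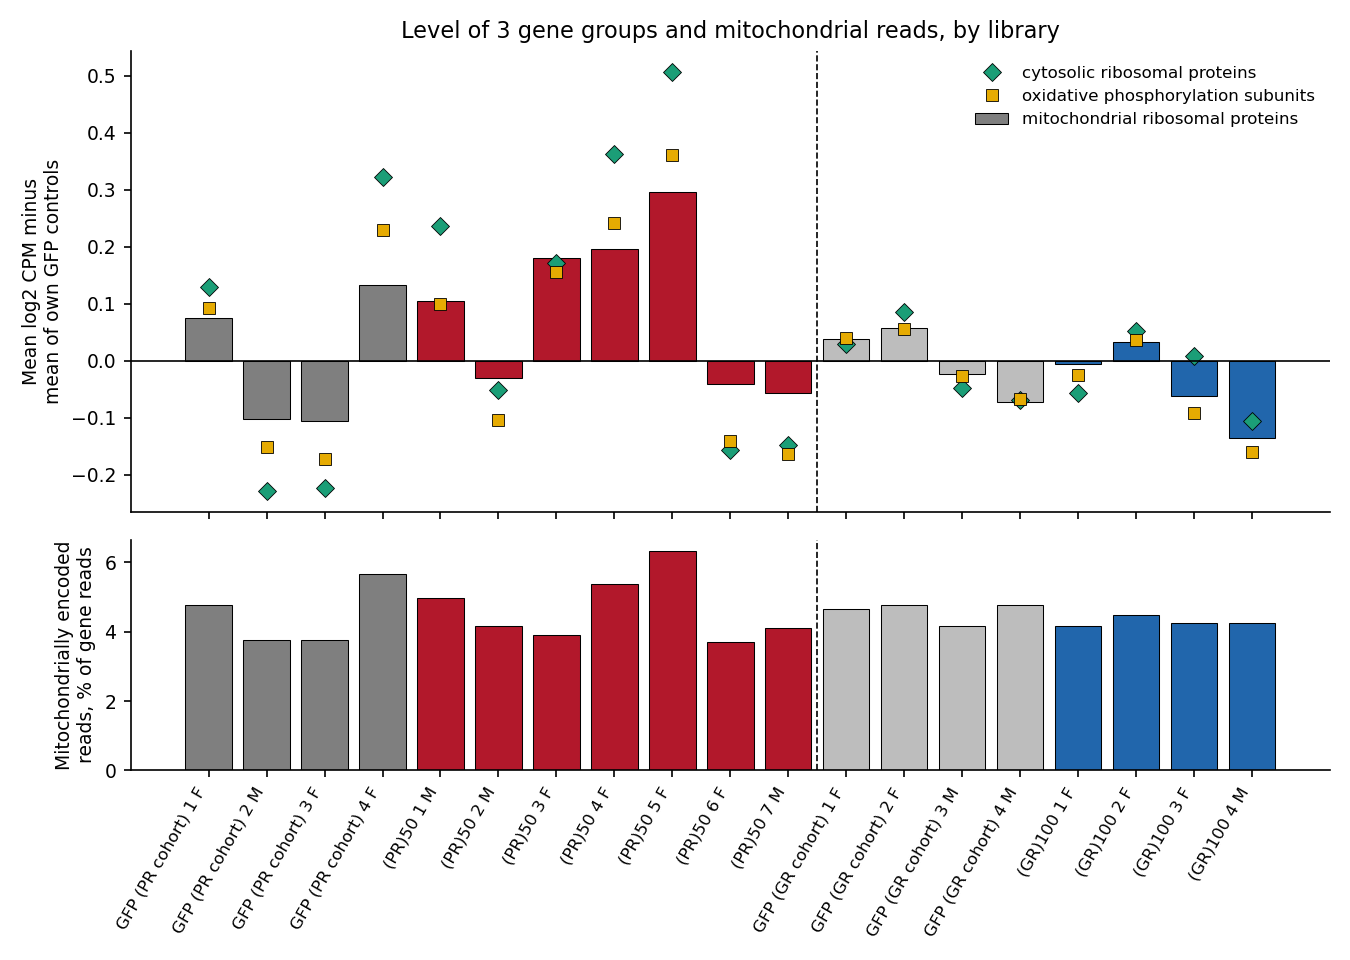
Upper panel: mean log2 CPM of the 77 genes (bars), of cytosolic ribosomal protein genes (diamonds) and of nuclear oxidative phosphorylation genes (squares) in each library, less the mean of the own GFP controls. Lower panel: reads on the mitochondrial genome in percent of gene reads, where poly(PR) library 5 is highest at 6.34%; F and M give the sex.

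The share of mitochondrial reads itself did not separate the groups. It was 4.48% ± 0.918 in the controls and 4.65% ± 0.955 with poly(PR) (SD, n = 4 and 7), with p = 0.77 by an exact two-sided permutation test whose smallest p is 0.00303. In the poly(GR) cohort it was 4.59% ± 0.28 and 4.29% ± 0.141 (SD, n = 4 each), with p = 0.114 by the exact permutation test, whose smallest p is 0.0286, and 0.228 after adjustment over the 2 cohorts.

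Other parts of the mitochondrial translation machinery gave these values, with no gene called in any of them. Of 5 mitochondrial ribosomal proteins that carry other symbols, 4 lay above 0 with poly(PR) (median 0.18) and 1 with poly(GR) (-0.06). The widest was Chchd1, a small-subunit protein, at 28.6 ± 3.79 and 35.3 ± 6.84 CPM in the poly(PR) cohort (log2 fold change 0.35, SE 0.12, adjusted p = 0.254) and 24.3 ± 1.75 and 21.0 ± 1.15 CPM in the poly(GR) cohort (-0.23, SE 0.07, adjusted p = 0.257). Dap3, a GTP-binding small-subunit protein, had 0.02 and 0.03. Of 26 genes for assembly of the mitochondrial ribosome and modification of its rRNA, 20 lay above 0 with poly(PR) (median 0.07) and 12 with poly(GR) (-0.02). Among them Mettl17, which acts in small-subunit assembly, had 0.40 (SE 0.11, adjusted p = 0.172) and 0.20 (SE 0.07, adjusted p = 0.338). Chchd1 and Mettl17 were named after their values were seen.

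Genes that act with the ribosome or respond to mitochondrial stress gave these values. Of 13 translation factors tested, 7 lay above 0 with poly(PR) (median 0.02) and 5 with poly(GR) (-0.04). Of 20 genes for mitochondrial aminoacyl-tRNA synthesis, 11 and 13 did (0.05 and 0.03), and of 13 regulators of mitochondrial transcription and biogenesis, 5 and 7 did (-0.03 and 0.01). Of 10 mitochondrial stress-response genes tested, 8 and 4 did (0.21 and -0.00953). The transcription factor gene Atf5 of that list, named after its values were seen, had 25.2 ± 6.38 and 45.5 ± 12.3 CPM in the poly(PR) cohort (log2 fold change 0.92, SE 0.19, adjusted p = 0.109) and 17.95 ± 0.939 and 18.2 ± 2.70 CPM in the poly(GR) cohort.

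The rRNAs of the mitochondrial ribosome had lower fitted values in both cohorts. With poly(GR), mt-Rnr1, the small-subunit rRNA, averaged 3199 ± 256 CPM in the controls and 2517 ± 130 CPM (log2 fold change -0.37, SE 0.07, adjusted p = 0.0794). The large-subunit rRNA mt-Rnr2 averaged 4872 ± 294 and 3880 ± 276 CPM (-0.36, SE 0.07, adjusted p = 0.0735). Their mean level in each poly(GR) library was below that in every control. With poly(PR), mt-Rnr1 and mt-Rnr2 had -0.14 (SE 0.22) and -0.13 (SE 0.19), with overlapping groups. Of the mitochondrially encoded mRNAs, 12 of 13 lay above 0 with poly(PR) (median 0.09), and 1 of 12 tested with poly(GR) (-0.13).

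Larger gene groups had medians of the same sign as the mitochondrial ribosomal proteins. Of 93 cytosolic ribosomal protein genes tested, 87 lay above 0 with poly(PR) (median 0.20) and 12 with poly(GR) (-0.07). Of 76 nuclear oxidative phosphorylation genes, 62 and 6 did (0.11 and -0.09). No gene of either list was called. The difference between these lists and the 77 genes was not tested.

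At the median the members had shorter transcripts than the protein-coding genes tested, and a similar GC content. Their median transcript length was 849.5 bases against 1557 over the 15284 protein-coding genes among the 19156 tested with poly(PR). Their median GC content was 51.27% against 50.98% over the 15278 of these with a value. Over the same protein-coding genes, fold changes with poly(PR) ran with GC content: the median was -0.10 at up to 45% GC and 0.11 above 57% GC. The 6 members at up to 45% GC had a median of -0.03, and the 12 above 57% had 0.17. By length, the median over the protein-coding genes was 0.08 below 600 bases and -0.10 above 3000 bases, where the 14 and 2 members had 0.14 and -0.00602. With offsets for GC content and length, 59 of the 77 lay above 0 with poly(PR), with a median of 0.06, and 71 lay below 0 with poly(GR), with a median of -0.07.

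Promoters of these genes often hold short motifs of factors known for housekeeping and mitochondrial genes. Windows from 250 bases before to 50 bases after the start (RefSeq, GRCm38.p6) were available for 69 of the 78. On either strand, CCGGAAG, bound by ETS factors such as GABPA, was found for 26 of the 69 (37.7%, against 9.93% of 27025 genes). These 27025 are all genes with a window, tested here or not, and shares over the tested genes alone were not computed. AAGATGGC of YY1 was found for 12 (17.4% against 3.19%), GCATGCGC of NRF1 for 8 (11.6% against 3.05%) and TATAAA of the TATA box for 5 (7.25% against 15.7%). The first and the second motif can overlap in their shared letters AAG, and 38 of the 69 held at least 1 of the ETS, YY1 or NRF1 motifs. The ETS motif is shown in 3 windows, from genes with unlike fold changes with poly(PR): Mrpl52 (0.35), Mrpl34 (0.14) and Mrps22 (0.05). The windows give the 150 bases before the start, free of annotated exons, with the motif or its reverse complement in capitals.
Mrpl52, chr14:54426759-54426908, plus strand: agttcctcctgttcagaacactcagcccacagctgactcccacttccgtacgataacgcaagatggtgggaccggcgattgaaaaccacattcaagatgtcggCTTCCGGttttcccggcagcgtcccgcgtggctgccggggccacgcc
Mrpl34, chr8:71464776-71464925, plus strand: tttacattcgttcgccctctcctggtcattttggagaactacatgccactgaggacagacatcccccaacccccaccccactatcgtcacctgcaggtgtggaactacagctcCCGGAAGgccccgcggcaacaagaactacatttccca
Mrps22, chr9:98601680-98601829, minus strand: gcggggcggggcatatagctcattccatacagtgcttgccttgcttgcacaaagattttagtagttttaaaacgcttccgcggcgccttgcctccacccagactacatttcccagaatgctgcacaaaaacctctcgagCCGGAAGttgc
With poly(PR), the median log2 fold change was 0.13 over the 25 tested genes with the ETS motif and 0.10 over the 43 without. For YY1 it was 0.11 and 0.12, and for NRF1 0.11 and 0.12. The 5 tested genes with a TATA box had a median of 0.02 and the 63 without had 0.13. With poly(GR), the medians with and without the motif were -0.09 and -0.07 for ETS, -0.07 and -0.07 for YY1, -0.03 and -0.07 for NRF1 and -0.09 and -0.07 for the TATA box. These differences were not tested. A match describes the letters and not binding.

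Markers of other cell types and regions were measured beside these results. The summed level of 8 striatal neuron markers was 962 to 1118 CPM in the poly(PR) controls and 1257 to 1926 CPM with poly(PR), and 955 to 1121 and 1242 to 1399 CPM in the poly(GR) cohort. For 10 pan-neuronal markers the sums were 7447 to 8559 and 6261 to 7465 CPM, then 8237 to 8425 and 7705 to 8228 CPM. For 8 microglial markers they were 327 to 355 and 365 to 446 CPM, then 336 to 381 and 374 to 417 CPM. The log2 fold change was above 0 in 5 of the 8 microglial markers and below 0 in 3 with poly(PR), where the mean log level of the list overlapped between groups, and it was above 0 in all 8 with poly(GR). For 7 choroid plexus markers they were 59.3 to 184 and 15.0 to 563 CPM, then 128 to 361 and 15.1 to 125 CPM. With poly(GR), 5 of the 8 striatal markers were called higher and 3 of the 7 choroid plexus markers lower, and with poly(PR) 0 of either list were called.

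Markers of neurons and astrocytes of the labelled tissue were measured in the same way. For 7 excitatory neuron markers the sums were 5132 to 6015 CPM in the poly(PR) controls and 4460 to 5305 CPM with poly(PR), then 5086 to 5640 and 5127 to 5797 CPM in the poly(GR) cohort. With poly(PR), the log2 fold change was below 0 in all 7 excitatory and all 10 pan-neuronal markers, with medians of -0.19 and -0.22, and the mean log level of each list was lower in every poly(PR) library than in every control. None of them was called, and 5 and 8 of them had an unadjusted p under 0.05. For 6 inhibitory interneuron markers the sums were 1067 to 1341 CPM in the poly(PR) controls and 1074 to 1330 CPM with poly(PR). In the poly(GR) cohort they were 1059 to 1196 and 1163 to 1320 CPM. With poly(PR), 4 of the 6 interneuron markers were above 0 and 2 below (median 0.04), and the mean log level overlapped between groups. With poly(GR), 5 of the 7 excitatory markers were below 0, and Neurod6, a transcription factor of excitatory neurons, was called lower (log2 fold change -0.37, adjusted p = 0.0331 by edgeR). For 7 astrocyte markers the sums were 4363 to 4607 and 4233 to 4617 CPM, then 4251 to 5230 and 4843 to 4970 CPM. With poly(PR), 5 of the 7 astrocyte markers were above 0, and Gfap, the intermediate filament of astrocytes, was called higher (243.9 ± 53.6 CPM in controls and 466.6 ± 90.1 CPM with poly(PR), SD, adjusted p = 0.0429 by edgeR). The mean log level of the astrocyte list was higher in every poly(PR) library than in every control. Over the list, however, the median log2 fold change was 0.04, with values from -0.24 to 1.01. At an unadjusted p under 0.05 by edgeR, Gfap alone was higher and 1 marker was lower. No marker of these lists was at 0 in all libraries. Their part in the results was not tested.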

How the data were processed

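Hippocampus and cortex homogenates of 19 mice were sequenced. Per the labels' protocols a kit for stranded total RNA made the libraries, although the molecule is labelled as polyA RNA. The tools were Trimmomatic 0.36 and STAR 2.5.2b, with mm10 and mm9 as builds, per the submitters' processing notes. The sources used here name no gene annotation. The deposited tables hold whole-number counts of reads per gene that the authors did not normalize, and separate counts for 1067 repeat subfamilies, used here for the rRNA share alone. Of the gene tables, 14 have 4 columns and 5 have 2 columns, all 5 in the poly(GR) cohort. The strand columns split at 49.9% to 50.1%, so the unstranded column was taken. For 223 genes low in that column and high by strand, the 2-column tables held at most 12 reads, so they hold the same kind of count.

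Symbols came from GENCODE M21. The quasi-likelihood test of edgeR 4.0.16 (R 4.3.3) was applied to genes kept by filterByExpr, scaled by TMM, with a term for sex, and p-values were adjusted over all genes tested by Benjamini-Hochberg with a threshold of 0.05. Cohorts were fitted separately, each with its controls, and the difference of effects over all 19 libraries. CPM values are TMM-scaled within a cohort and are not compared across cohorts. The levels per length are the exception, TMM-scaled and averaged over all 19 libraries. Means of log2 CPM used a prior count of 2. Alternatives were DESeq2 1.42.0, RLE scaling, no filter, no sex term, 1 surrogate variable (sva 3.50.0), 1 fit of all libraries, mitochondrial genes left out and each library left out, and, chosen after seeing the data, offsets for GC content and length, the mitochondrial share as a covariate and 2 controls left out. The fits were checked on simulated counts.

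Replicate numbers name libraries in accession order. No 2 libraries of a group agreed within sampling noise (smallest chi-square per degree of freedom 5.59), and all 19 sex labels matched Xist. The labels call the samples separate mice. The members, lists and tests were chosen with earlier results of these data known. The named genes are those called, the 5 highest and 5 lowest per cohort at a mean log2 CPM of at least 1, a list of 22 by role, the 3 highest and 3 lowest per length and both mitochondrial rRNAs. Other names in the text were chosen after their values were seen.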

Additional observations from a re-analysis of the deposited data

Results flagged for a closer look

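In 7 of the 148 groups of values examined (4.73%), 1 library lay far from the others of its group, and chance gives about 1 in 20. Mrpl16 had 26.28 CPM in poly(GR) control 2, where the other controls had 22.3 to 23.0 CPM. Mrpl54 had 19.28 CPM in poly(GR) library 2, against 14.9 to 15.2 CPM in the other poly(GR) libraries. Mrps30 had 18.55 CPM in poly(GR) library 3, against 17.0 to 17.1 CPM. In poly(GR) library 4, Mrpl58 had 31.19 CPM and Mrps27 had 14.74 CPM, below the 32.7 to 32.9 CPM and the 16.9 to 17.2 CPM of the others. Mrps18b had 5.373 CPM in poly(PR) control 4, against 6.88 to 7.10 CPM in the other controls. The share of mitochondrial reads was 4.176% in poly(GR) control 3, against 4.66% to 4.76% in the other controls.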

How the results depend on the processing

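For the 77 tested genes the count on 1 side of 0 and the median log2 fold change kept their direction in every alternative run, other than in the poly(GR) cohort with controls 1 and 2 left out, where 34 lay below 0 and the median was 0.00766. In the poly(PR) cohort, leaving out each library gave 61 to 69 genes above 0 and medians of 0.07 to 0.17. In the poly(GR) cohort it gave 54 to 73 below 0 and medians of -0.09 to -0.05, and for the difference 72 to 76 above 0 and medians of 0.16 to 0.24. The count of called members was 0 in every setting other than 1 with poly(PR), for Mrps18a, under 1 surrogate variable, with the share of mitochondrial reads as a covariate, and in a range of 0 to 1 over the libraries left out (without poly(PR) library 6). The cause was not tested. Of the 2345 values of 35 named genes under the alternatives, 2194 kept both their sign and their side of the threshold, whatever their size. A further 148 changed sign without being called, and 3, all of Mrps18a, kept their sign and passed the threshold.

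Over all genes, the poly(PR) comparison called 11, and 352 with DESeq2, 69 without the filter, 4 without the sex term, 603 with 1 surrogate variable, 188 in 1 fit of all 19 libraries, 62 with offsets for GC content and length, 748 with the share of mitochondrial reads and 0 to 617 with a library left out (617 without poly(PR) library 6). The poly(GR) comparison called 32, and 146 with DESeq2, 522 without the filter, 8 without the sex term, 1 in the fit of all libraries, 93 within the 4-column tables, 55 with the GC and length offsets, 0 with the share of mitochondrial reads, 0 with controls 1 and 2 left out and 0 to 111 with a library left out (111 without poly(GR) library 4). The difference called 0, and 7 with DESeq2, 1 without the filter, 3 with 1 surrogate variable, 1 with the offsets, 1 with the share of mitochondrial reads and 0 to 3 with a library left out. The cause was not tested. The difference in the share of mitochondrial reads ranged from -0.111 to 0.563 percentage points with poly(PR), reaching -0.111 without poly(PR) library 5, and from -0.439 to -0.244 with poly(GR), with a library left out. No paired analysis was possible because the labels give the groups no shared replicate numbers. The libraries held 26934239 reads and above. Libraries of a group differed by more than sampling noise, and counting error was not compared with the spread between mice gene by gene.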
